A study of Mus musculus with 2 samples.

Results

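Marker genes of Kupffer cells and other macrophages were followed in 2 pools of mouse liver RNA, 1 wild-type and 1 labelled FHL2-/-. The list held 33 genes, and a gene was taken when a probe of the array was annotated to its symbol alone, with the brightest such probe standing for it. Of the 33 genes, 32 were measured, each by 1 probe, among 19938 genes in all. Slc11a1, a metal transporter of the phagosome, had no such probe and was not analysed here.

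Each pool combined left-lobe liver RNA of 3 male mice aged 10 to 11 weeks on a hybrid Black Swiss/129-SV/J background and was hybridised to 1 array. Livers had been rinsed in cold buffer to take out blood, and 300 ng of total RNA was carried into labelling. The study asked which liver transcripts differ without Fhl2, which encodes an adaptor built of LIM domains that docks onto transcriptional and signalling partners. With 1 array per genotype there were no replicates, pooling hid the spread between mice, and every value compares these pools only. All levels are log2 array values, and every difference is the knockout-labelled minus the wild-type pool on the log2 scale, so a negative value is lower in the knockout-labelled pool. The targeted gene gave 5.30 in wild-type liver against 5.33 in the knockout-labelled pool. It lay below the level filter described next, and the labels do not say which exons the allele lacks, so its 1 probe does not check the genotype. Hepatocyte markers were bright in both pools, with albumin (Alb) at 13.74 and 13.67.

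Kupffer cells are the resident macrophages of the liver. They sit in the sinusoids, where they take up bacteria, complement-coated particles and old red blood cells from the passing blood. Most are seeded before birth and renew in place, and they need signalling through the receptor Csf1r. Clec4f, Vsig4, Timd4, Cd5l, Marco and Cd163 mark resident cells and are called Kupffer-restricted here, although some other resident macrophages also make several of them. The other 27 genes are shared with other macrophages, monocytes, dendritic cells or all leukocytes and are called general myeloid.

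A gene was kept when its mean level over both arrays was 5.44 or more, a limit set at the 40th percentile of single-symbol probes. This left 11924 genes and 31 of the 32 measured markers. The chemokine receptor Ccr2, which draws monocytes from the bone marrow into tissue, did not pass, at 4.28 in wild-type liver against 4.53 in the knockout-labelled pool. Its difference of 0.25 therefore lay between dim values. The probes of genes measured more than once gave differences with an SD of 0.143 between probes of the same gene, over 660 genes. That SD is an error of probes alone and says nothing of the spread between mice or repeat arrays. No marker had a second probe.

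The markers lay mostly on the lower side in the knockout-labelled pool. Of the 31 past the filter, 27 were below 0, against 40.4% of all genes past the filter. At least 1.2-fold lower were 10 of the 31, against 6.16% of all genes. None of the 31 was as much higher, against 8.66% of all genes. None reached 1.5-fold in either direction, which 0.335% of all genes did on the lower side and 0.621% on the higher side. The median difference of the 31 was -0.20 (SD over genes 0.174, range -0.41 to 0.24), beside a median of 0.04 over all genes past the filter. Past 1 probe SD were 17 markers on the lower side and 3 on the higher side, Cd163, Msr1 and Fcgr1, and the other 11 lay within it. Of all genes past the filter, 15.0% lay that far on the lower and 25.2% on the higher side. In bulk RNA, fewer macrophages and less of each transcript per macrophage cannot be told apart.

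With both arrays brought to a common median, which adds 0.04 to every difference, 6 of the 31 were at least 1.2-fold lower, against 4.32% of all genes. These were Marco, Adgre1, Lyz2, Cd14, Cd53 and Aif1. After that shift 21 of the 31 were below 0, against 30.8% of all genes, and Timd4, Cd5l, Mpeg1, Fcer1g, Spi1 and Lgals3 moved from just below to just above 0. The shift was taken from all probes and also moves the median of all genes past the filter, 0.04 before it, farther above 0. The place of each marker among all genes is therefore unchanged by it. Genes between the dimmest and brightest of the 31 markers, 9490 in number, had a median of 0.04, and 6.20% of them were at least 1.2-fold lower.

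**Figure D1:**
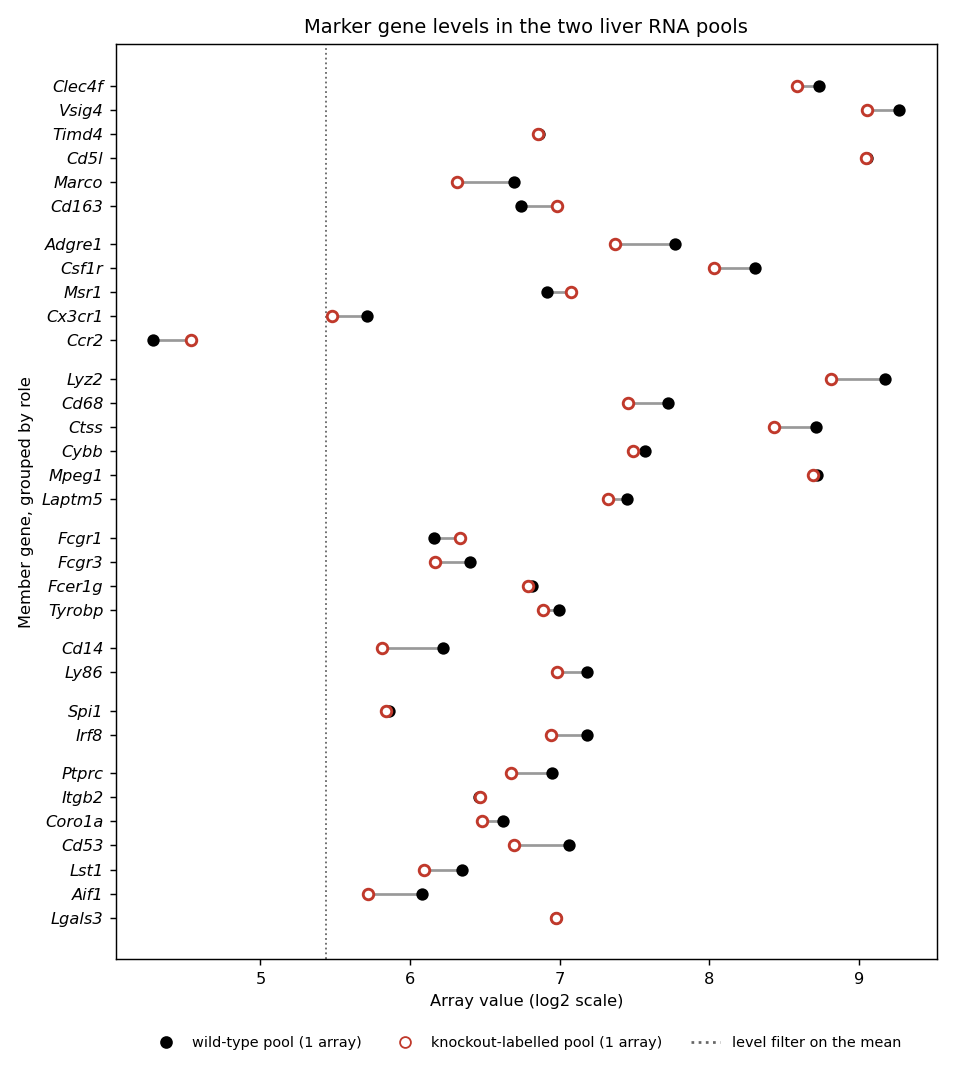
Array value (log2 scale) of the 32 measured markers in the wild-type pool (filled circles) and the knockout-labelled pool (open circles), 1 array each, grouped by role. The dotted line is the level filter of 5.44 on the mean, which Ccr2 does not reach, and for 27 genes the open circle lies to the left of or almost on the filled one.

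Among the Kupffer-restricted markers, the genes for surface receptors split into lower, level and higher. Marco, a scavenger receptor for bacteria and particles, was at 6.69 in wild-type liver against 6.31 in the knockout-labelled pool, a log2 difference of -0.38. Only 2.18% of all genes past the filter had a lower difference than Marco. Vsig4, the receptor that captures complement-coated bacteria, was at 9.27 and 9.05, a difference of -0.22. Clec4f, a lectin made almost only by Kupffer cells in the mouse, was at 8.74 and 8.59, a difference of -0.15. That difference was about as large as the probe SD.

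Of the other Kupffer-restricted genes, Timd4 and Cd5l were nearly level and Cd163 was higher. Timd4, a phosphatidylserine receptor of long-lived resident macrophages, was at 6.86 in both pools (difference -0.0025). Cd5l, a protein secreted by tissue macrophages, was at 9.05 in both (difference -0.0077). Cd163, which takes up haemoglobin bound to haptoglobin, was at 6.74 in wild-type liver against 6.98 in the knockout-labelled pool, 1.18-fold higher. It was the highest of the 31 markers, and 89.3% of all genes lay lower.

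The promoters of the Kupffer-restricted genes that lay farthest from 0 are shown because these genes share a cell of origin but did not lie on the same side. They are the 250 bases before the start in RefSeq, build GRCm38.p6, 5′ to 3′ on the strand of the gene. Capitals mark GAGGAA, the core of the site that PU.1 recognises, searched on both strands. PU.1 is encoded by Spi1, a marker of the list.
Clec4f, chr6:83656117-83656366, minus strand: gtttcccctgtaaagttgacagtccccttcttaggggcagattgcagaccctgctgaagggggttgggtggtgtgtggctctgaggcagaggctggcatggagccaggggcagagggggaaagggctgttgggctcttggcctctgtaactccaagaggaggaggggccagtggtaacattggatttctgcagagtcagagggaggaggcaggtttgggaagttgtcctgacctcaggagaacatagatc
Vsig4, chrX:96293439-96293688, minus strand: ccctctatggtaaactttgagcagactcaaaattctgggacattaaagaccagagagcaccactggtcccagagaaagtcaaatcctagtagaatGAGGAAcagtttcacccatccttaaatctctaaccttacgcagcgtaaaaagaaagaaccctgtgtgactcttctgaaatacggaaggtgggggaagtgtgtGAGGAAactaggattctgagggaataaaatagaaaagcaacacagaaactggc
Marco, chr1:120505025-120505274, minus strand: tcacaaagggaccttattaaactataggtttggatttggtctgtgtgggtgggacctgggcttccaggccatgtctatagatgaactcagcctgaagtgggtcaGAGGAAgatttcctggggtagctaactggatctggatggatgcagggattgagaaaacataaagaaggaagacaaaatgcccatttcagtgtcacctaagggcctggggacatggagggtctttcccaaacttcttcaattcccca
Cd163, chr6:124304401-124304650, plus strand: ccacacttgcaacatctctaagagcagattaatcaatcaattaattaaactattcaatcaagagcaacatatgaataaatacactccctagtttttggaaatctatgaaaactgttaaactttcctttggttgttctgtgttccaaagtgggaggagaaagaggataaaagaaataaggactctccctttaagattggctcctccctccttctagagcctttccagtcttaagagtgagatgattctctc

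Marco held 1 match and Vsig4 held 2, while the windows of Clec4f and Cd163 held none. Timd4 held none and Cd5l 1, on the opposite strand. Windows were found for 25 of the 33 markers, and 12 of the 25 genes (48.0%) held GAGGAA in at least 1 window, against 25.9% of 27025 genes. The 12 were Vsig4, Cd5l, Marco, Cd68, Ctss, Slc11a1, Laptm5, Fcgr1, Fcgr3, Ptprc, Cd53 and Aif1. Adgre1, Csf1r, Msr1, Tyrobp, Cd14, Spi1, Itgb2 and Lst1 had no window in the table. A match describes these letters and is no evidence of binding. The measured genes with a match had differences from -0.38 (Marco) to 0.17 (Fcgr1).

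Among the broader macrophage receptors, Adgre1 had the lowest difference. Adgre1, the adhesion receptor known as F4/80, was at 7.77 in wild-type liver against 7.37 in the knockout-labelled pool, 1.32-fold lower. Csf1r, the receptor for macrophage growth factor on which Kupffer cells depend, was at 8.31 and 8.03, 1.21-fold lower. Its ligands were not lower, with Csf1 at 6.51 and 6.64 and Il34 at 6.09 and 6.11. Cx3cr1, a chemokine receptor of monocytes and of macrophages near the liver capsule, was at 5.71 and 5.48. The second value lies just above the filter, so its difference of -0.23 is uncertain in size. Msr1, a scavenger receptor for modified lipoproteins, lay on the other side, at 6.92 and 7.08, a difference of 0.16.

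All 6 measured genes of the lysosome and phagosome group were below 0, beside 40.4% of all genes past the filter. Mpeg1, however, turned to just above 0 after the common median shift. Lyz2, the lysozyme of macrophages, was at 9.18 in wild-type liver against 8.82 in the knockout-labelled pool, 1.28-fold lower. Lyz2 has a close copy, Lyz1, which was dim in both pools at 5.20 and 5.31, and probes could share signal between them. Ctss, a protease that trims the class II invariant chain, was at 8.71 and 8.43, and Cd68, a lysosomal membrane glycoprotein, at 7.73 and 7.46. These differences were -0.28 and -0.27. Laptm5, a lysosomal membrane protein of leukocytes, was at 7.45 and 7.32. Cybb, the catalytic subunit of the phagocyte oxidase, was at 7.57 and 7.49, and Mpeg1, a pore-forming protein of the phagosome, at 8.72 and 8.70. The last 2 differences, -0.08 and -0.02, were smaller than the probe SD.

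Other subunits of the phagocyte oxidase, picked after their values were seen, lay on the same side as Cybb. The membrane partner Cyba was at 7.73 and 7.53 and the cytosolic organiser Ncf1 at 6.60 and 6.27. Ncf4, another cytosolic subunit, was at 5.77 and 5.68.

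Fc receptors and their adaptors differed among themselves. Fcgr3, a low-affinity receptor for immunoglobulin G, was at 6.40 in wild-type liver against 6.17 in the knockout-labelled pool, differing by -0.23. Fcgr1, the high-affinity receptor, was at 6.16 and 6.33, a difference of 0.17. Fcer1g, the shared signalling chain of both receptors, was at 6.82 and 6.79, a difference of -0.03. Tyrobp, the adaptor known as DAP12, was at 7.00 and 6.89, and Trem2, a lipid-sensing receptor that signals through it, at 6.20 and 5.84. Fcgr3 is similar in sequence to Fcgr2b and Fcgr4, so the value of each is uncertain. Fcgr2b, the inhibitory receptor that sinusoidal endothelium also makes, was at 7.59 and 7.71.

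Cd14 had the lowest difference of all 31 markers. Cd14, the co-receptor that hands endotoxin to its receptor complex, was at 6.22 in wild-type liver against 5.82 in the knockout-labelled pool, 1.33-fold lower. Only 1.77% of all genes lay lower. Hepatocytes and endothelium can also make Cd14, so it is not a pure macrophage gene. Ly86, a secreted partner of a receptor related to those for endotoxin, was at 7.18 and 6.98, a difference of -0.20. Tlr2, the receptor for bacterial lipoproteins, was at 6.07 and 5.78. Tlr4, the receptor for endotoxin itself, lay below the level filter at 4.94 and 4.78.

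The transcription factors of the myeloid lineage were uneven. Irf8, which directs monocyte and macrophage development, was at 7.19 in wild-type liver against 6.94 in the knockout-labelled pool, differing by -0.24. Spi1 was at 5.86 and 5.84, a difference of -0.02 that was of the other sign once the common median shift was applied, and also once the trend on level was removed.

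Genes shared by all leukocytes or tied to their cytoskeleton had a median difference of -0.26 over 7 genes. Cd53, a tetraspanin of leukocytes, was at 7.06 in wild-type liver against 6.69 in the knockout-labelled pool, 1.29-fold lower. Aif1, an actin-binding protein of macrophages, was at 6.08 and 5.72, 1.28-fold lower. Ptprc, the leukocyte common antigen CD45, was at 6.95 and 6.68, 1.21-fold lower. Lst1, a membrane protein of myeloid cells, was at 6.35 and 6.09, a difference of -0.26. Coro1a, an actin regulator of leukocytes, was at 6.62 and 6.48, a difference of -0.14. Itgb2, the beta chain of the leukocyte integrins, was level at 6.46 and 6.47, and so was Lgals3, a galectin of activated macrophages that other cells make too, at 6.98 in both pools.

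**Figure D2:**
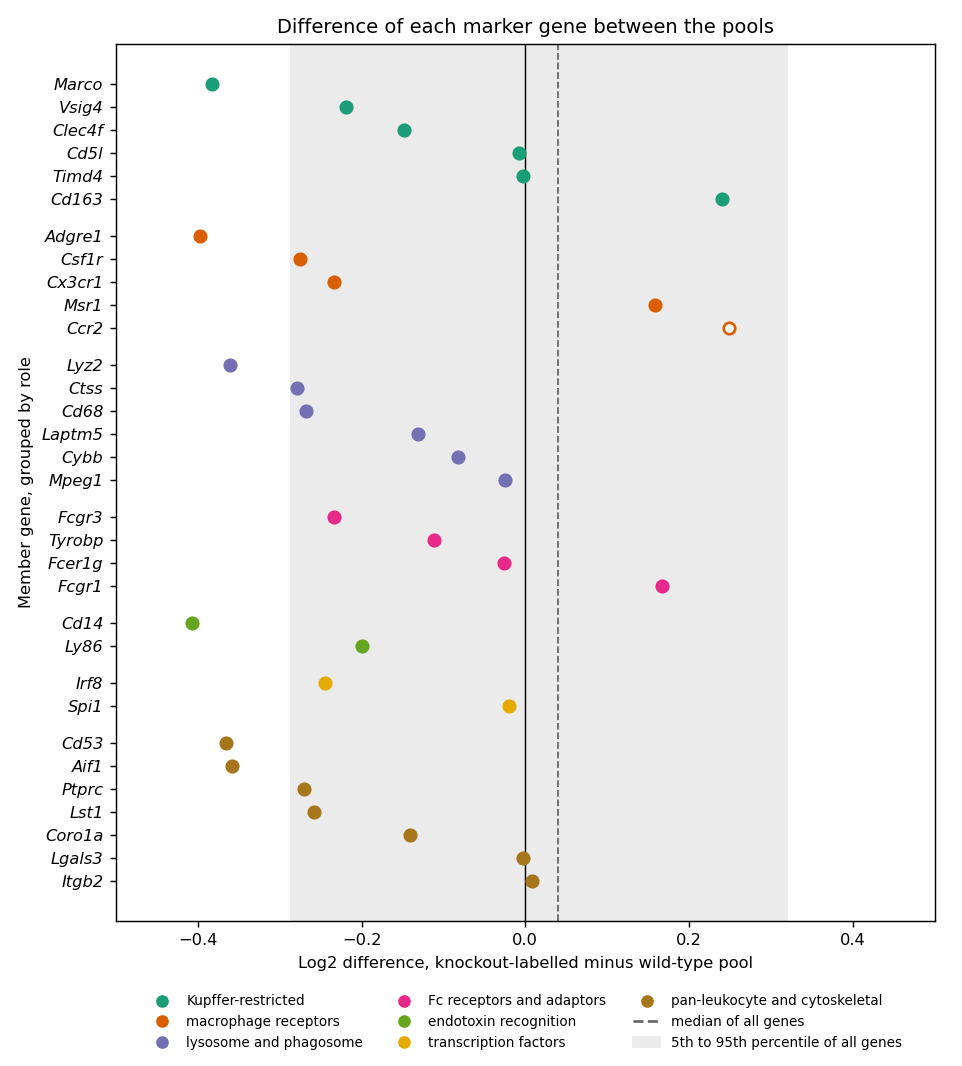
Log2 difference (knockout-labelled minus wild-type pool) of each measured marker, 1 point per gene, coloured by role, with an open point for Ccr2, which lies below the level filter. The grey band spans the 5th to the 95th percentile of the 11924 genes past the filter (-0.29 to 0.32) and the dashed line their median (0.04), and 6 markers lie to the left of the band and none to its right.

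The comparison of Kupffer-restricted with general myeloid markers asked whether genes of resident cells lay on the same side as the rest. The 6 Kupffer-restricted genes had a median difference of -0.08 (SD over genes 0.214), and 5 were below 0. Of these 5, Timd4 and Cd5l turned to just above 0 after the common median shift. The 25 general myeloid genes past the filter had a median of -0.23 (SD over genes 0.163), and 22 were below 0. Of these 22, Mpeg1, Fcer1g, Spi1 and Lgals3 turned to just above 0 after that shift. Of all genes past the filter, 40.4% were below 0. At least 1.2-fold lower were 1 of the 6, Marco, and 9 of the 25, namely Adgre1, Csf1r, Lyz2, Cd68, Ctss, Cd14, Ptprc, Cd53 and Aif1, beside 6.16% of all genes. The medians were 0.16 apart. With Adgre1 counted as Kupffer-restricted, or with Cd163 counted as general myeloid, the gap was 0.07. Without Marco the Kupffer-restricted median was -0.0077. The values of the groups overlapped, and with 1 array per genotype the gap could not be tested.

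**Figure D3:**
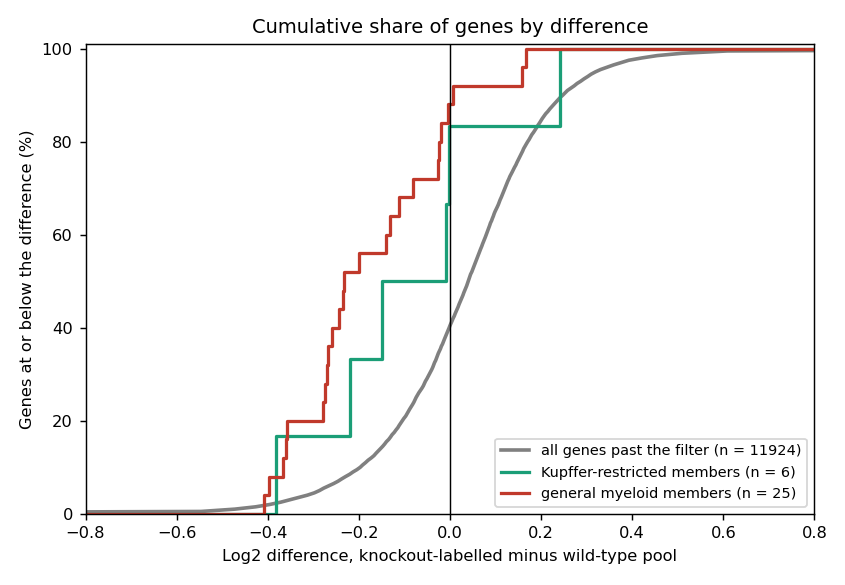
Cumulative share of genes (%) at or below each log2 difference for the 6 Kupffer-restricted markers (green), the 25 general myeloid markers past the filter (red) and all 11924 genes past the filter (grey). At 0, 5 of the 6 and 22 of the 25 markers lie to the left, against 40.4% of all genes, and the green and red steps overlap. Timd4 and Cd5l among the 5, and Mpeg1, Fcer1g, Spi1 and Lgals3 among the 22, lie almost at 0.

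Genes that give Kupffer cells their identity, and the signals that liver cells offer them, lay on both sides of 0, with more of them higher. The list held 19 genes, of which 16 passed the filter, with a median of 0.12. Below 0 were 5 of the 16 and above it 11, beside 40.4% of all genes below 0. Of the 16, 5 were at least 1.2-fold higher, beside 8.66% of all genes, and 1 was at least 1.2-fold lower, a share near the 6.16% of all genes. Maf, a transcription factor of resident macrophages and endothelium, was at 6.82 in wild-type liver against 7.47 in the knockout-labelled pool, and Id3, which Kupffer cells need to develop, at 8.84 and 9.50. Both were over 1.5-fold higher. Tgfb1, a cytokine of many liver cells, was at 6.95 and 7.35, and Slc40a1, the iron exporter of macrophages, at 10.34 and 10.71. The haem oxygenase Hmox1, picked after its value was seen, was at 7.20 and 7.52. Csf2rb, the shared beta chain of cytokine receptors, was at 5.87 and 5.54, the second value just above the level filter. The transcription factors Zeb2, Runx3 and Nr1h3, picked after their values were seen, differed by -0.08, -0.16 and 0.11. Hepatocytes or endothelial cells also make many of these genes, among them Id3, Maf and Slc40a1, so the list is not a measure of macrophages alone.

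A second list of macrophage genes outside the markers was centred near 0. Of its 39 genes 30 passed the filter, with a median of 0.01 that turned to -0.01 without the level filter and to -0.0070 with the trend on level removed, and a mean of -0.0080. At least 1.2-fold lower were 3 of the 30, the inhibitory receptor gene Lilrb4a (6.56 and 6.12), Ncf1 and Tlr2. At least 1.2-fold higher were 2, Arhgap30 (5.55, just above the level filter, and 5.98) and Cd84, an adhesion receptor of leukocytes (5.80 and 6.08). Both counts are near the shares over all genes, 6.16% lower and 8.66% higher. The chains of C1q, the complement starter that macrophages secrete, were picked after their values were seen. C1qa was at 8.53 in wild-type liver against 8.37 in the knockout-labelled pool, C1qb at 7.60 and 7.48, and C1qc at 7.30 and 7.52. Other cells make several genes of this list, such as the lysosomal protease Ctsb.

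Antigen presentation genes of MHC class II also lay mostly on the lower side. Of 8 listed genes 6 passed, with a median of -0.30, and 4 of the 6 were at least 1.2-fold lower, beside 6.16% of all genes. H2-Ab1 was at 8.89 in wild-type liver against 8.41 in the knockout-labelled pool and H2-Aa at 8.58 and 8.18. H2-Eb1 was at 7.70 and 7.39 and the invariant chain Cd74 at 8.71 and 8.42. Dendritic cells, B cells and macrophages all make these genes. The exception on the higher side was Cst3, a protease inhibitor of many cell types, at 11.09 and 11.20.

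Most markers of other leukocytes lay below the level filter. Among monocyte and infiltrating macrophage markers 5 of 13 measured genes passed, with a median of -0.16, and the summed level of all 13 on the linear scale was 997 in wild-type liver against 906 in the knockout-labelled pool. Of the 5, Trem2 and the tetraspanin Cd9 (8.41 and 8.11) were at least 1.2-fold lower. Nr4a1, a nuclear receptor of patrolling monocytes that is also an immediate-early gene, was higher at 5.66 and 6.31. Of all genes past the filter, 6.16% were at least 1.2-fold lower and 8.66% at least 1.2-fold higher. Neutrophil markers passed in 2 of 14 cases, with a median of -0.08 and summed levels of 426 and 397. The 2, looked at after their values were seen, were S100a9 (5.52 and 5.37) and Prtn3 (5.65 in both pools). S100a9 passed only through its wild-type value, so that median carries little. Dendritic cell markers passed in 3 of 10, with a median of -0.11 and summed levels of 441 and 449. T and NK cell markers passed in 5 of 15, with a median of -0.14 and summed levels of 563 and 531. Only 1 of the 5, Cd8a, was at least 1.2-fold lower, beside 6.16% of all genes. Cd8a, a coreceptor of cytotoxic T cells, was at 5.65 and 5.24. The second value lies below the filter, so Cd8a passed only through its wild-type value. B cell markers passed in 2 of 10, with a median of -0.01 (0.03 under the common median shift) and summed levels of 365 and 340. Each sum takes in all measured genes of its list, most of them below the filter, so it does not measure the amount of these cells. The brightest gene in the monocyte sum was Cd9. No marker is listed at 0 on this log2 scale. The part of these cells in the lower values of Ptprc, Cd53 and Coro1a, which lymphocytes share, was not tested.

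The summed level of the 31 markers on the linear scale was 0.891 of the wild-type value in the knockout-labelled pool. For the 6 Kupffer-restricted genes this ratio was 0.928 and for the 25 general myeloid genes 0.874. Sinusoidal endothelial markers, from the cells that line the same vessels, had a ratio of 1.08. All 17 of them passed the filter, with a median of 0.13, and 3 were below 0, beside 40.4% of all genes past the filter. Gpr182, a receptor of these cells, was at 6.57 in wild-type liver against 7.07 in the knockout-labelled pool, and Mrc1 and Fcgr2b are shared with the macrophage list. Hepatocyte markers had a ratio of 1.02.

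**Figure D4:**
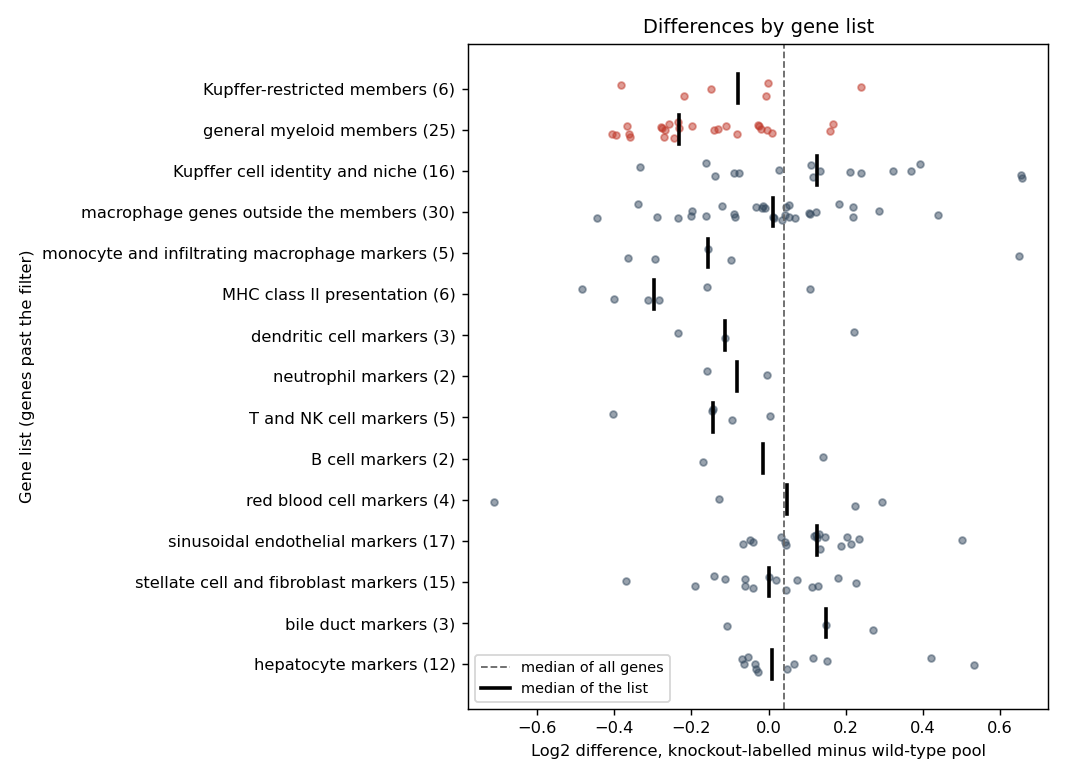
Log2 difference (knockout-labelled minus wild-type pool) of each gene past the level filter, 1 point per gene, in the marker groups (red) and in 13 other gene lists (dark blue), with the number of genes in brackets and a black bar at each list's median. The general myeloid markers are centred at -0.23 and the MHC class II genes at -0.30, and the sinusoidal endothelial genes at 0.13, beside a median of 0.04 for all genes (dashed line).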

How the data were processed

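Liver RNA of 1 wild-type and 1 knockout-labelled pool was measured on 2 Affymetrix arrays. The deposited values are log2 signals per probe set, made with Affymetrix Expression Console 1.0, RMA and Partek 6.4 per the submitters' processing notes, which give no role or order. RMA normalises arrays to a common distribution, which hides a change in total RNA. Program settings and build: not given in the sources used here. Read depth has no meaning for arrays, whose number limits the precision.

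Of 28853 probes, 21789 had 1 symbol, 1621 had several and 5443 had none in the platform annotation. The brightest probe stood for a gene, with a level filter at the 40th percentile and folds of 1.2 and 1.5, in Python 3.11.15 with pandas 2.3.3. No test was possible with 1 array per group. The summary step was tested on simulated data. The members and lists were chosen with earlier results of these data known. Named were all markers, Fhl2, up to 4 genes per direction in each other list that passed 1.2-fold, and genes stated as picked after their values were seen; genes named beside a marker for context, such as Csf1, Il34, Lyz1, Fcgr2b, Alb and Cst3, were also picked after their values were seen. Promoters came from RefSeq, build GRCm38.p6. Alternatives were a common median shift, a lowess trend (span 0.3), the mean over probes, other filters, means, other group membership, leaving out the most extreme marker, and other folds.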

Additional observations from a re-analysis of the deposited data

How the results depend on the processing

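The median of the 31 markers ran from -0.20 to -0.15 over 7 alternatives, that of the general myeloid genes from -0.24 to -0.17 over 9 and that of the Kupffer-restricted genes from -0.15 to -0.0077 over 9, without a change of sign. The gap between the groups ran from 0.07 to 0.21. Some of these alternatives could not move a value. Each marker had 1 probe, so averaging probes left these medians as they were. Dropping the level filter left the Kupffer-restricted median unchanged, and the common median shift left the gap unchanged. The count of markers at least 1.2-fold lower, 10, became 6 after the common median shift, and 18 at 1.1-fold, 3 at 1.3-fold and 0 at 1.5-fold. Among the other lists, the Kupffer identity list moved to 0.32 and the red blood cell list to 0.22 with the filter at the 60th percentile, where the bile duct list turned to -0.11. Without the filter the red blood cell list turned to -0.13 and the second macrophage list to -0.014. With the trend on level removed the second macrophage list was at -0.0070, the B cell list at 0.0023, the stellate list at -0.043 and the hepatocyte list at -0.0037. The B cell list was at 0.027 under the common median shift, and at 0.14 when probes were averaged. The causes were not tested. The MHC class II median without Cst3, tried after the data were seen, was -0.31. No paired analysis was possible because each group holds 1 array.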

Other observations

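Lists of other liver cells, which bear on no macrophage comparison, gave these values. Of 15 hepatocyte genes 12 passed the filter, with a median of 0.0095, and the gluconeogenic enzymes G6pc (11.63 in wild-type liver against 12.16 in the knockout-labelled pool) and Pck1 (11.90 and 12.32) were at least 1.2-fold higher. All 15 stellate cell and fibroblast genes passed, with a median of 0.0010 and a mean of -0.01, and Col1a1, a fibrillar collagen chain, was at 7.53 and 7.16. Bile duct markers passed in 3 of 7 cases, with a median of 0.15. Only 1 of the 3, the keratin Krt19 (5.35 and 5.62), was at least 1.2-fold higher, beside 8.66% of all genes. Krt19 lay below the level filter in wild-type liver and passed only through the knockout-labelled value. Red blood cell markers passed in 4 of 5, with a median of 0.05 and a mean of -0.08. In that list the haem enzyme Alas2 was at 9.60 and 9.89, while the transferrin receptor Tfrc, which many cells make, was at 7.53 and 6.82.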
